A study of Mus musculus with 8 samples.

Results

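The genes described here encode the activin and bone morphogenetic protein (BMP) ligands and the secreted proteins that bind and block them. They are INHBA, INHBB, BMP4, BMP6, BMP7, FST, FSTL1, FSTL3, NOG and GREM1, in the capitals that the deposited read count table uses. Of these 10 genes, 9 were among the 13937 genes of that table and all 9 passed the filter on low counts with 13509 genes in all. Grem1 had no row there and was read only from the deposited FPKM table of 18644 genes. Mouse symbols are written below as Inhba, Bmp4 and so on.

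The cells were primary astrocytes from the brains of C57BL/6 pups aged 1 day, wild type (WT) or lacking RGC-32 (RGC-32 KO, here KO; the gene is Rgcc). After removal of the meninges, 2 weeks in serum-containing medium and shaking to detach other cells, the cultures were starved of serum overnight. They were then either left untreated (control) or stimulated with TGF-β at 10 ng/ml for 24 h. Each of the 4 groups, WT control, WT TGF-β, KO control and KO TGF-β, had 2 libraries described as biological replicates, so that 8 libraries entered each fit. How many pups or litters stood behind a library was not given in the sources used here, and p-values measure only the spread between these libraries.

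Activins and BMPs are secreted members of the TGF-β superfamily. Activins are dimers of the βA subunit (Inhba) or the βB subunit (Inhbb), and, like TGF-β itself, they signal through the transcription factors SMAD2 and SMAD3. BMPs signal through SMAD1, SMAD5 and SMAD9 and switch on the Id genes. Follistatin (Fst) and follistatin-like 3 (Fstl3) hold activins away from their receptors, and noggin (Nog) and gremlin 1 (Grem1) do the same to BMPs. In astrocytes, BMPs are known for driving differentiation and the expression of Gfap.

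Total counts per library were between 14920561 and 18956038. Log2 CPM of the 2 libraries of a group correlated at r = 0.988 to 0.993 across genes, which are not independent replicates. Rgcc, the deleted gene, had 80 and 94 counts in WT control, 215 and 362 in WT TGF-β, 61 and 28 in KO control, and 64 and 26 in KO TGF-β, so that reads on it remained in every KO library. Its log2 difference of KO against WT was −0.97 in control (SE 0.532, adjusted p = 0.780) and −2.54 with TGF-β (SE 0.483, adjusted p = 0.133), neither past the threshold. Of 10 astrocyte markers, Gfap (1659 ± 158 CPM in WT control, SD, n = 2) and Aqp4 (1031 ± 63.6) were the highest and S100b (12.6 ± 2.73) the lowest. The summed level of the 10 was 4325 to 4557 CPM in WT control and 3440 to 3584 in WT TGF-β. In KO it was 5017 to 5737 CPM in control and 4252 to 4585 with TGF-β. Microglial markers were also present, 12 genes summing to 1448 to 1753 CPM in WT control and 1313 to 1746 in WT TGF-β, which overlap, and to 1620 to 1714 in KO control and 1406 to 1568 in KO TGF-β, which do not. The 14 meningeal fibroblast markers with a row summed to 4877 to 6239 CPM in WT control and 9283 to 10480 in WT TGF-β, but without the 3 collagen genes Col1a1, Col1a2 and Col3a1 to 1226 to 1444 and 972 to 1082. In KO the full sums were lower than in WT, at 4099 to 4359 CPM in control and 7007 to 7145 with TGF-β, and those without the collagens were 1143 to 1232 and 935 to 969. The 8 choroid and ependymal markers with a row summed to 380 to 447 CPM in WT control and 240 to 269 in WT TGF-β. In KO they summed to 409 to 454 CPM in control and 290 to 304 with TGF-β. Within this list, WT control levels ran from 1.24 ± 0.0679 CPM for Ttr to 318.4 ± 32.95 CPM for Foxj1. The oligodendrocyte lineage markers summed to 229 to 266 CPM in WT control and 461 to 545 in WT TGF-β. In KO they summed to 221 to 262 CPM in control and 374 to 491 with TGF-β. In WT control and WT TGF-β, Cspg4 made up 32.0 and 280 CPM of these on average, and Olig1 156 and 163 CPM. Olig2 was at 30.9 ± 0.81 CPM in WT control and Sox10 at 0.382 ± 0.372. The part of these cell types in the results below was not tested, and in bulk RNA fewer cells of a type and less RNA per cell cannot be told apart.

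The bases before the transcription start of 4 members are printed to show what lay upstream of 3 genes that rose with TGF-β, Inhba, Fstl3 and Fstl1, and of Bmp4, which fell in WT. They come from RefSeq on build GRCm38.p6, where 7 of the 10 genes had an entry, and were cut so that none reaches into the gene of GENCODE M21. Inhba starts at chr13:16011851 on the plus strand, Fstl3 at chr10:79777272 on the plus strand, Fstl1 at chr16:37776873 on the plus strand and Bmp4 at chr14:46390669 on the minus strand. The stretches are chr13:16011601-16011850 (Inhba), chr10:79777024-79777271 (Fstl3), chr16:37776805-37776872 (Fstl1) and chr14:46390670-46390919 (Bmp4), each read 5′ to 3′ on the strand of its gene. Capitals mark a CAGA box, the SMAD3 motif CAGACA or its reverse complement TGTCTG:
Inhba: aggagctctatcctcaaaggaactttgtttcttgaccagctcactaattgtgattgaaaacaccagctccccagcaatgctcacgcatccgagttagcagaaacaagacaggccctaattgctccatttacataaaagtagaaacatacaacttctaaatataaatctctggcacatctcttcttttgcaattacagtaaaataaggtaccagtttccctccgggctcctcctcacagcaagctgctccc
Fstl3: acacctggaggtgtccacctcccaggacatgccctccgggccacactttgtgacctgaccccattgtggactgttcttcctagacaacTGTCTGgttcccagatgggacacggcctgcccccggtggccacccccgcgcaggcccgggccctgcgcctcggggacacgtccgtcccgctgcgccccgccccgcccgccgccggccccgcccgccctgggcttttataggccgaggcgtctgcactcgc
Fstl1: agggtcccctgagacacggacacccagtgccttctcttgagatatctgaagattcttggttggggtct
Bmp4: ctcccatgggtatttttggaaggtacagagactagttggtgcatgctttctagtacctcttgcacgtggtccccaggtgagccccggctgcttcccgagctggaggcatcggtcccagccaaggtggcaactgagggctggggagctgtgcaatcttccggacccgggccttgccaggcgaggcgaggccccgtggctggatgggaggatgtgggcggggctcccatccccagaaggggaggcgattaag

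The 4 motifs searched, on both strands, were CAGACA, the AP-1 motif TGANTCA, the GC-rich SMAD site GGCGCC and the TEAD motif GGAATG, and none of them overlapped another here. Of 32851 promoter windows of 250 bases in the table, 17.1% held CAGACA, 6.75% TGANTCA, 9.59% GGCGCC and 12.6% GGAATG. Among the 6 members with bases left before both starts (Inhba, Inhbb, Bmp4, Fstl1, Fstl3 and Grem1), Fstl3 held 1 CAGA box, 160 to 155 bases before its start, and Grem1 held 1 GGCGCC, 78 to 73 bases before its start. The other 4 held none of these letters, and Fstl1 had only 68 bases to search. The stretches differed in base composition, with a GC content of 43.2% for Inhba, 52.9% for Fstl1, 63.2% for Bmp4, 68.0% for Inhbb, 71.4% for Fstl3 and 72.0% for Grem1, beside a median of 52.4% over all windows. These matches are descriptions of the letters only.

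The first question is which of these genes moved with TGF-β. In WT astrocytes 4 of the 9 tested genes rose (Fstl3, Inhba, Fst and Fstl1) and 2 fell (Bmp7 and Bmp4), where 7.72% of all genes tested rose and 5.65% fell. In KO astrocytes the same 4 genes rose and Bmp7 fell, where 6.61% of all genes rose and 4.93% fell. To count as changed, a gene needed a log2 fold change of 0.6 or more in size together with an adjusted p below 0.05 (edgeR's quasi-likelihood test, two-sided, Benjamini-Hochberg over 13509 genes). Both members that bind activin rose together with the activin βA subunit, while none of Bmp4, Bmp6 and Bmp7 rose. CPM, a gene's count scaled by its library's TMM-adjusted total, serves to compare libraries for 1 gene.

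**Figure D1:**
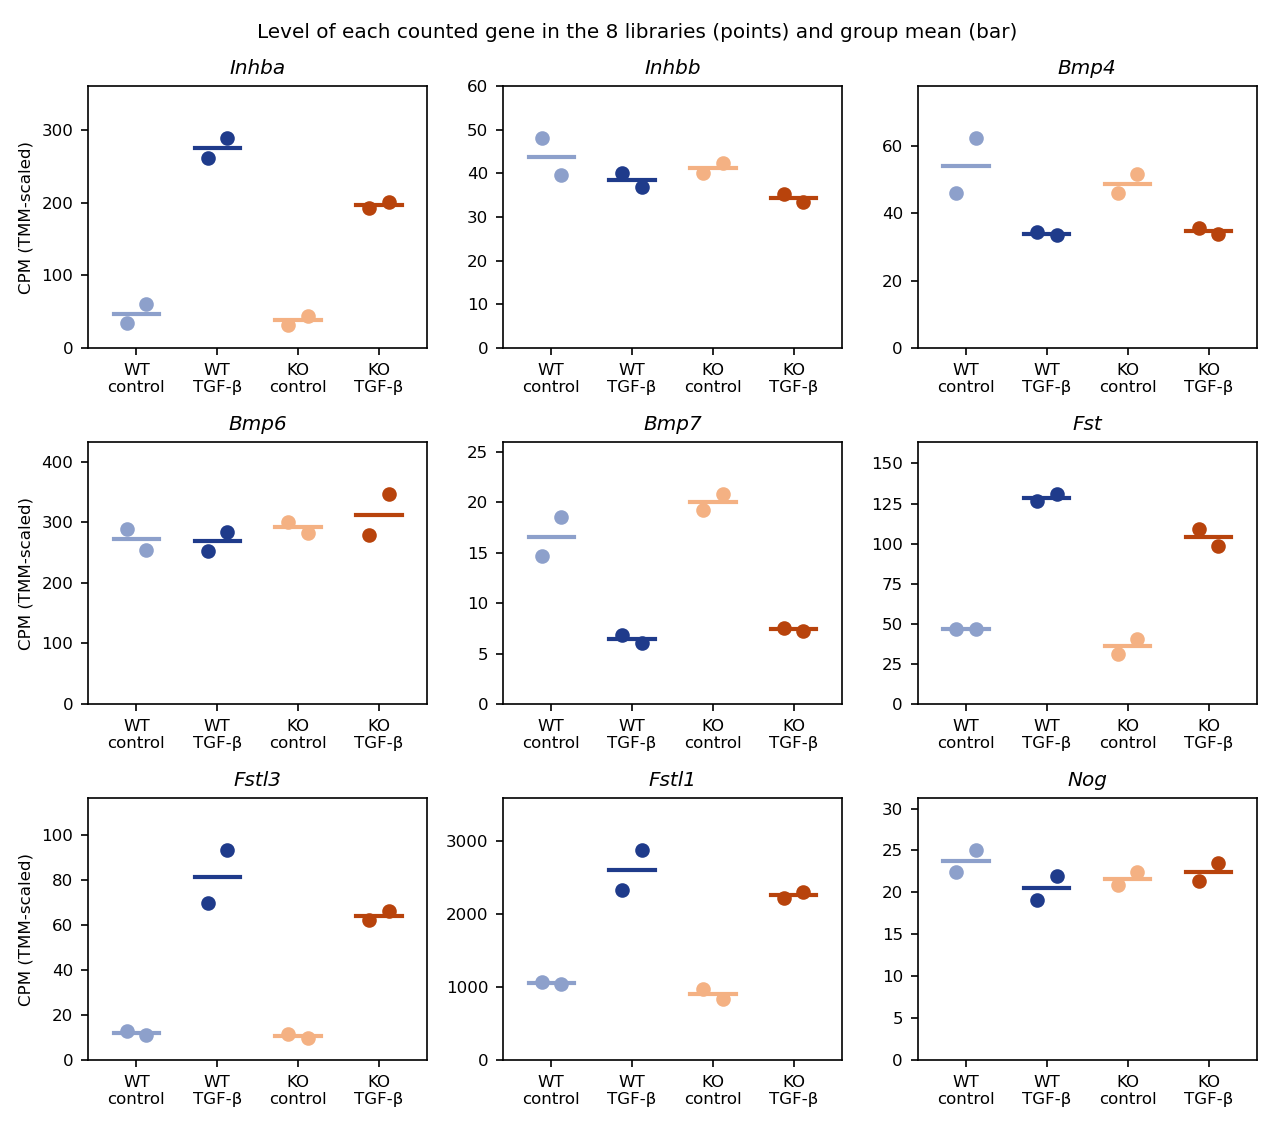
Level of each of the 9 counted genes in CPM (vertical axes, starting at 0 and scaled per gene) in the 8 libraries (points) of the 4 groups, with bars at the group means. The TGF-β libraries of Inhba, Fst, Fstl3 and Fstl1 lie above every control library and those of Bmp7 and Bmp4 below every control library, whereas those of Inhbb, Bmp6 and Nog overlap the control libraries.

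Inhba encodes the βA subunit, 2 of which make activin A. Its level was 34.0 and 60.2 CPM in WT control and 261 and 288 CPM in WT TGF-β. In KO it was 32.0 and 44.4 CPM in control and 193 and 201 CPM with TGF-β. Every TGF-β library lay above every control library, and both KO TGF-β libraries lay below both WT TGF-β libraries. Inhba rose 5.82-fold in WT (log2 fold change 2.54, SE 0.244, adjusted p = 0.000383) and 5.14-fold in KO (2.36, SE 0.246, adjusted p = 0.000655). Relative to their mean, the WT control libraries differed more for Inhba than for any other counted member, and with any 1 library left out the WT log2 fold change stayed between 2.19 and 2.996.

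Inhbb encodes the βB subunit of activin B. It was at 48.0 and 39.7 CPM in WT control, 40.03 and 37.0 in WT TGF-β, 40.2 and 42.4 in KO control, and 35.2 and 33.4 in KO TGF-β. The WT groups overlapped and the KO groups did not. The log2 fold change was −0.19 in WT (95% interval −0.41 to 0.04, adjusted p = 0.178) and −0.27 in KO (−0.50 to −0.04, adjusted p = 0.0784), so that neither passed the test, and both intervals lie far below the increase of Inhba. The 2 subunits can be set side by side only per length, in FPKM (fragments relative to transcript length and sequencing depth). The ratio of Inhba to Inhbb was 0.497 and 1.01 in WT control, 4.80 and 4.71 in WT TGF-β, 0.570 and 0.716 in KO control, and 3.92 and 3.74 in KO TGF-β. Inhbb was thus the more abundant subunit mRNA in 3 of the 4 control libraries and Inhba in all 4 TGF-β libraries.

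Fstl3 is a secreted relative of follistatin that binds activins. Its level was 13.0 and 11.2 CPM in WT control, 69.9 and 93.3 in WT TGF-β, 11.5 and 9.88 in KO control, and 62.1 and 66.5 in KO TGF-β. The groups did not overlap in either genotype. The increase was 6.73-fold in WT (log2 fold change 2.75, SE 0.155, adjusted p = 8.31e-05) and 6.01-fold in KO (2.59, SE 0.158, adjusted p = 0.000123), and in WT it ranked 59th of the genes tested by absolute log2 fold change. The span of the gene, introns included, shares 1157 bases with that of Prss57 on the opposite strand. The libraries were unstranded, so that reads in the shared bases cannot be assigned to either by strand. Prss57 was counted at 151 and 140 in WT control, 873 and 996 in WT TGF-β, 144 and 148 in KO control, and 633 and 678 in KO TGF-β, that is, it moved with Fstl3. In the FPKM table, however, Prss57 never exceeded 0.358, while Fstl3 went from 6.04 and 5.27 FPKM in WT control to 32.9 and 38.0 in WT TGF-β, and from 5.56 and 5.07 in KO control to 30.2 and 27.5 in KO TGF-β.

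Fst, follistatin, is the founding activin-binding protein and also binds several BMPs. It was at 46.5 and 46.7 CPM in WT control, 126 and 131 in WT TGF-β, 31.5 and 40.7 in KO control, and 109 and 98.4 in KO TGF-β. All TGF-β libraries lay above all control libraries, and within each treatment both KO libraries lay below both WT libraries. Fst rose 2.76-fold in WT (log2 fold change 1.46, SE 0.110, adjusted p = 0.000175) and 2.88-fold in KO (1.52, SE 0.112, adjusted p = 0.000201).

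Fstl1 is an abundant secreted glycoprotein with a follistatin-like domain that has been described as a BMP4 antagonist. It was at 1065 and 1041 CPM in WT control, 2322 and 2865 in WT TGF-β, 968 and 829 in KO control, and 2221 and 2297 in KO TGF-β. The groups of each genotype were well separated. It rose 2.46-fold in WT (log2 fold change 1.30, SE 0.120, adjusted p = 0.000328) and 2.52-fold in KO (1.33, SE 0.120, adjusted p = 0.000374).

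The summed FPKM of Fst and Fstl3 was set against that of Inhba and Inhbb, a sum chosen after the values of its genes were seen and given without a test. The ratio was 1.41 and 1.26 in WT control, 1.71 and 1.86 in WT TGF-β, 1.26 and 1.24 in KO control, and 1.97 and 1.83 in KO TGF-β. It was above 1 in all 8 libraries and higher in every TGF-β library than in every control library, while the activin subunits themselves went from 15.3 and 17.0 FPKM to 42.9 and 40.8 in WT and from 13.8 and 15.5 to 34.7 and 31.5 in KO. These are mRNA levels, and the proteins were not measured.

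**Figure D2:**
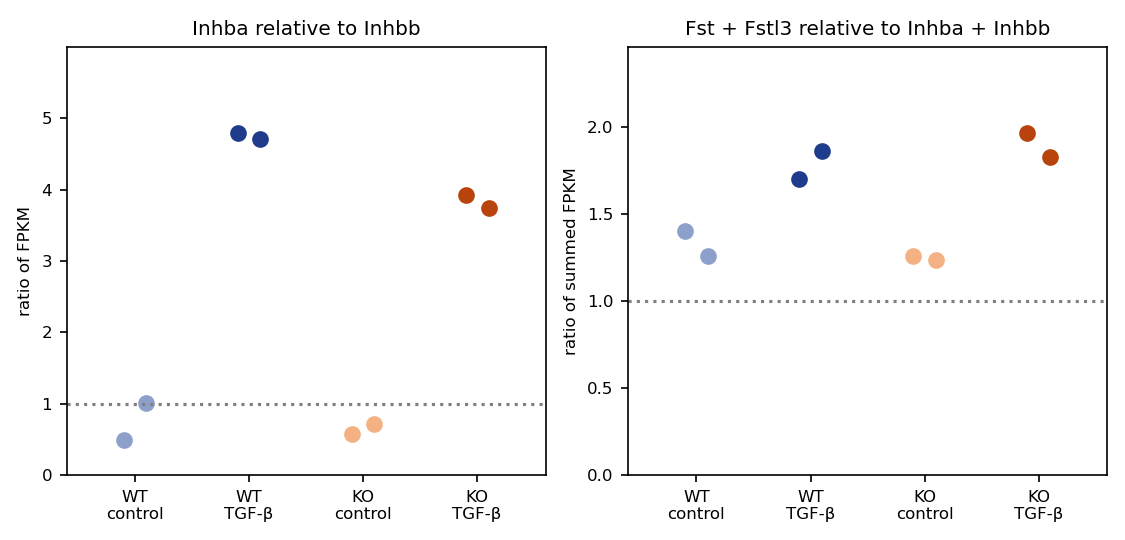
Ratio of Inhba to Inhbb (left) and of Fst plus Fstl3 to Inhba plus Inhbb (right), both in FPKM, in each of the 8 libraries (points), with a dotted line at a ratio of 1. In the left panel the TGF-β libraries sit at 3.74 to 4.80 and the control libraries at 0.497 to 1.01, and in the right panel the TGF-β libraries sit at 1.71 to 1.97 and the control libraries at 1.24 to 1.41.

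Bmp7, a BMP ligand known for its part in kidney and eye development, was at 14.7 and 18.5 CPM in WT control, 6.80 and 6.07 in WT TGF-β, 19.3 and 20.8 in KO control, and 7.57 and 7.20 in KO TGF-β. Control and TGF-β libraries did not overlap in either genotype. Bmp7 fell in both, by a log2 step of −1.36 in WT (SE 0.141, adjusted p = 0.000527), which is a 2.58-fold lower level, and −1.44 in KO (SE 0.139, adjusted p = 0.000491), which is 2.71-fold lower.

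Bmp4, which promotes astrocyte differentiation in culture, was at 45.9 and 62.1 CPM in WT control, 34.3 and 33.5 in WT TGF-β, 45.9 and 51.5 in KO control, and 35.6 and 33.7 in KO TGF-β. The TGF-β libraries of both genotypes lay within 33.5 to 35.6 CPM, below all 4 control libraries. In WT the log2 fold change was −0.67 (SE 0.134, 95% interval −0.98 to −0.36, adjusted p = 0.00739) and passed both limits. In KO it was −0.49 (SE 0.135, interval −0.80 to −0.18, adjusted p = 0.0299), which passed the limit on p and missed that on the fold. The WT call rests on 1 library, because without the WT control replicate at 62.1 CPM the log2 fold change was −0.45 (adjusted p = 0.0176). The difference between the genotypes, given as an interaction, was 0.18 on the log2 scale (interval −0.26 to 0.62, adjusted p = 1).

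Bmp6, a BMP best known for control of iron balance through hepcidin, was at 289 and 255 CPM in WT control, 253 and 285 in WT TGF-β, 301 and 283 in KO control, and 279 and 346 in KO TGF-β. The groups overlapped in both genotypes. The log2 fold change was −0.02 in WT (interval −0.28 to 0.25, adjusted p = 0.921) and 0.10 in KO (−0.17 to 0.36, adjusted p = 0.557), and its sign changed with single libraries in both. The intervals leave out a change of the size seen for Bmp7. In FPKM, Bmp6 made up 69.0% and 77.0% of the summed Bmp4, Bmp6 and Bmp7 of WT control, 79.0% and 82.1% of WT TGF-β, 77.0% and 74.6% of KO control, and 81.9% and 85.9% of KO TGF-β. That sum, also formed after the values were seen, was 105 and 106 FPKM in WT control and 83.0 and 88.5 in WT TGF-β. It was 113 and 110 FPKM in KO control and 87.6 and 107 in KO TGF-β. FPKM was used as deposited, without the TMM scaling of CPM. Bmp6 alone, with a WT log2 fold change of −0.02 from counts, was at 77.1 FPKM in WT control and 69.2 in WT TGF-β on average.

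Nog, noggin, is a secreted protein that wraps BMPs and hides their receptor-binding faces. It was at 22.4 and 25.0 CPM in WT control, 19.1 and 22.0 in WT TGF-β, 20.9 and 22.4 in KO control, and 21.4 and 23.5 in KO TGF-β. The WT groups lay apart by less than 1 CPM and the KO groups overlapped. The log2 fold change was −0.21 in WT (interval −0.45 to 0.03, adjusted p = 0.162) and 0.05 in KO (−0.19 to 0.30, adjusted p = 0.734). Grem1, a secreted BMP antagonist of the DAN family, was read at 0.0773 and 0.103 FPKM in WT control, 0.0934 and 0.116 in WT TGF-β, 0.0776 and 0.0349 in KO control, and 0.0557 and 0.0705 in KO TGF-β. With limma on log2(FPKM + 0.1), its difference was 0.11 in WT (adjusted p = 0.655) and 0.07 in KO (adjusted p = 0.778), a scale that understates the change of so low a gene.

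**Figure D3:**
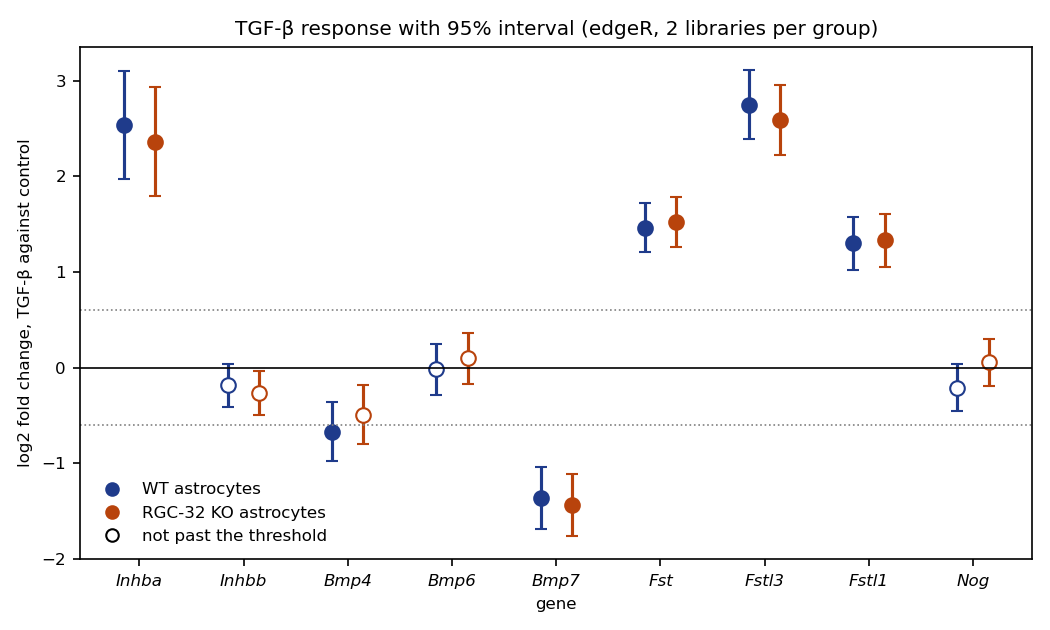
Log2 fold change of TGF-β against control (vertical axis) for the 9 counted genes in WT (blue) and KO (orange) astrocytes, with 95% intervals from edgeR and 2 libraries per group. Filled points passed the threshold, dotted lines mark 0.6 and −0.6, and the WT and KO intervals of each gene overlap.

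Ordered by level per length, Fstl1 stood first in all 4 groups (254 ± 1.71 FPKM in WT control, mean ± SD, n = 2) and Bmp6 second (77.1 ± 5.77). In WT control there followed Bmp4 (24.5 ± 5.29), Fst (15.8 ± 0.502), Nog (12.1 ± 1.26), Inhbb (9.33 ± 1.23), Inhba (6.81 ± 2.46), Fstl3 (5.66 ± 0.543), Bmp7 (3.98 ± 0.765) and Grem1 (0.0900 ± 0.0179). The libraries of Inhbb and Inhba, and of Inhba and Fstl3, overlapped, so those neighbours were not separated there. With TGF-β in WT, Fst (39.1 ± 1.53), Fstl3 (35.4 ± 3.59) and Inhba (34.6 ± 1.27) moved ahead of Bmp4 (15.1 ± 1.06), Nog (10.1 ± 0.779) and Inhbb (7.27 ± 0.176), and Bmp7 was at 1.51 ± 0.0769. Fstl3 and Inhba overlapped in that group. In KO TGF-β the order was the same, with Fst, Fstl3 and Inhba each overlapping its neighbour.

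**Figure D4:**
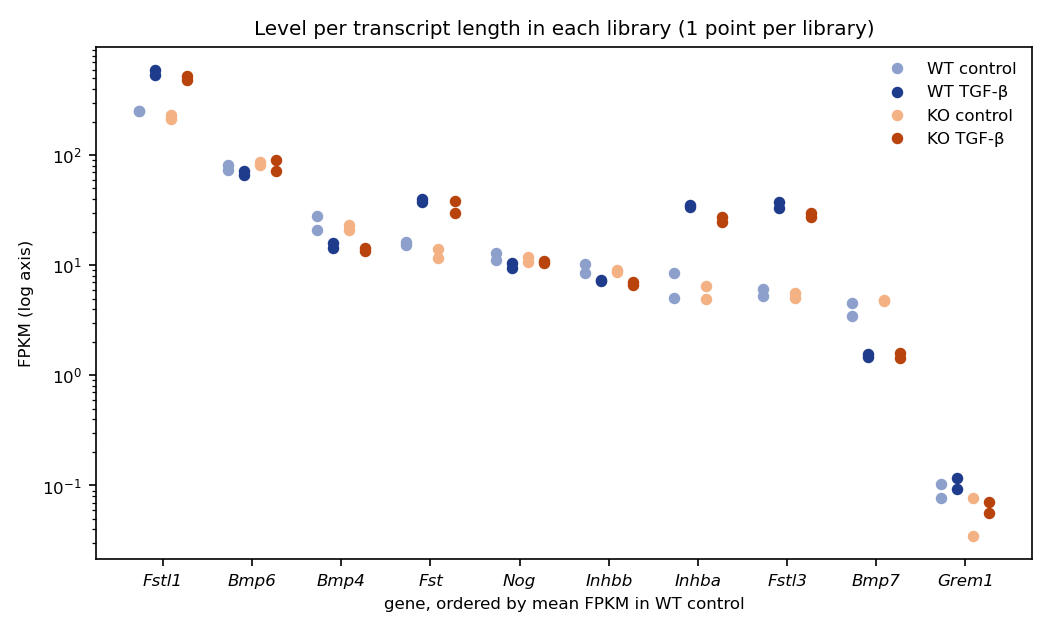
Level per transcript length of the 10 genes (horizontal axis, ordered by the mean in WT control) in FPKM on a log axis, with 1 point per library and 4 colours for the groups. Fstl1 lies at the top in every library, Grem1 at 0.0349 to 0.116 FPKM lies below every other gene, and Fst, Inhba and Fstl3 reach above Bmp4 with TGF-β.

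The second question is whether RGC-32 KO astrocytes differed from WT. None of the 9 genes passed in KO control against WT control, in KO TGF-β against WT TGF-β or in the interaction of genotype and TGF-β with edgeR, where 0.037%, 0.0444% and 0% of all genes did, and the count was 0 of 9 with DESeq2 and limma-voom as well. At an unadjusted p under 0.05 there were 1, 2 and 0 of 9 in these comparisons, where 6.84%, 11.7% and 2.82% of all genes tested were under that limit. The gene under that limit in both genotype comparisons was Fst, whose log2 difference of KO against WT was −0.37 in control (interval −0.63 to −0.10, adjusted p = 0.608) and −0.31 with TGF-β (−0.55 to −0.06, adjusted p = 0.329). With TGF-β, Fstl3 differed by −0.34 (interval −0.65 to −0.03, adjusted p = 0.387), and Inhba by −0.48 (−1.002 to 0.04, adjusted p = 0.462). For all 3 genes both KO TGF-β libraries lay below both WT TGF-β libraries. The same held for Fstl1 and Inhbb, while for Bmp7 both KO TGF-β libraries lay above both WT TGF-β libraries. With 2 libraries a group such a separation is weak evidence, and the share of all genes separated in this way was not computed. The summed meningeal fibroblast markers were lower in those KO libraries too (7007 to 7145 CPM against 9283 to 10480 in WT). Without Col1a1, Col1a2 and Col3a1 these sums lay closer together (935 to 969 CPM against 972 to 1082 in WT). The summed astrocyte markers were higher in those KO libraries (4252 to 4585 CPM against 3440 to 3584 in WT). The part of these cell types in the differences was not tested. The interaction, the difference of the KO from the WT response, was between −0.18 for Inhba (interval −0.95 to 0.60) and 0.26 for Nog (−0.08 to 0.61), with an adjusted p of 1 for each of the 9. For Fst it was 0.06 (−0.30 to 0.42) and for Fstl1 0.03 (−0.35 to 0.42), so that a difference of more than 0.42 in either direction lies outside both intervals, while for Inhba the 2 libraries a group leave room for nearly 1 log2 unit.

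The rest of the pathway was read from lists of genes by role. The counts below stand beside 7.72% higher and 5.65% lower over all genes tested in WT. In KO these shares were 6.61% and 4.93%. Whether a list departs from these shares was not tested. Of the other ligands, 9 of 25 listed genes were tested, and 2 rose and 1 fell in each genotype. Gdf6 (a ligand of joint and eye development) rose by 1.65 in WT and 1.59 in KO on the log2 scale (adjusted p = 0.00263 and 0.00349) from 1.08 and 1.20 CPM. Bmp3 fell by 1.39 in WT and by 1.49 in KO (adjusted p = 0.0102 and 0.00667) from 7.36 and 11.5 CPM. Bmp8a also passed, at mean counts of only 5 (WT control), 18 (WT TGF-β), 2.5 (KO control) and 12 (KO TGF-β). The median log2 fold change of this list was −0.32 in WT and 0.13 in KO, beside 0.00 over all genes in both.

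Of the other antagonists, 9 of 18 listed genes were tested, and 2 rose and 1 fell in WT and 3 rose and 1 fell in KO. Bmper, a chordin-related BMP modulator, rose by 1.92 in WT and 2.10 in KO on the log2 scale (adjusted p = 6.19e-05 and 7.28e-05). Sostdc1, an inhibitor of BMP and Wnt ligands, fell by 1.15 in WT and by 0.76 in KO (adjusted p = 0.000289 and 0.00156). Chrd, chordin, passed in KO (0.61, adjusted p = 0.0113) and was at 0.45 in WT (adjusted p = 0.0309). The list's median was 0.08 in WT and 0.06 in KO.

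Of the enzymes that cut ligand precursors or their antagonists, 5 of 6 were tested, and 4 rose in WT and 3 in KO. Furin, a proprotein convertase that matures TGF-β superfamily ligands, rose by 0.89 and 0.87 on the log2 scale in WT and KO (adjusted p = 0.000122 and 0.000146), and its relative Pcsk6 by 0.98 and 0.93 (adjusted p = 0.00497 and 0.00779). Tll1, a tolloid protease that cleaves chordin, rose by 1.24 and 1.22 (adjusted p = 0.000679 and 0.00104). Bmp1, a protease of the same class despite its name, rose by 0.61 in WT (adjusted p = 0.00674). In KO Bmp1 was at 0.46 (adjusted p = 0.0251), which missed only the limit on the fold. The list's median was 0.89 in WT and 0.87 in KO.

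Of the receptors and co-receptors, 11 of 14 were tested and 3 rose in both genotypes, with none lower and a median of 0.22 in WT and 0.04 in KO. They were the type I receptor Acvr1 (1.17 in WT and 1.14 in KO, adjusted p = 0.00034 and 0.000478), the type II receptor Bmpr2 (1.03 and 0.83, adjusted p = 0.000168 and 0.000408) and the co-receptor Eng (0.91 and 0.85, adjusted p = 0.0048 and 0.00886). Of the 8 SMADs, all tested, Smad7, the inhibitory SMAD that TGF-β and BMP both induce, rose by 1.35 and 1.17 (adjusted p = 6.19e-05 and 7.28e-05). Smad9, a BMP-specific SMAD, fell by 1.10 in WT and by 0.93 in KO (adjusted p = 0.00246 and 0.00595). The SMAD list had a median of 0.00 in WT and −0.04 in KO.

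Of the BMP target genes, 13 of 14 were tested. In WT 7 fell and 1 rose with a median of −0.75, and in KO 6 fell and 1 rose with a median of −0.54. The gene that rose was Smad7, which is on the TGF-β target list too. Smad9, given with the SMADs above, is among those that fell. Smad6 (0.19 in WT and 0.31 in KO), Hey1 (0.22 and 0.39) and Msx1 (−0.18 and −0.18) passed in neither genotype. Neither did Msx2 (−0.14 and 0.12) and Bambi (−0.46 and −0.18). Atoh8 fell from 65.8 to 20.8 CPM in WT and from 65.8 to 24.7 CPM in KO (log2 fold change −1.66 and −1.42, adjusted p = 6.19e-05 and 7.28e-05). The inhibitors of differentiation Id4 (−1.22 and −1.04, adjusted p = 0.00189 and 0.00429) and Id3 (−1.15 and −1.04, adjusted p = 0.000143 and 0.000233) fell in both genotypes, and so did the transcription factor Gata2 (−0.94 and −0.97, adjusted p = 0.0036 and 0.00443). The summed level of the list was 961 to 1051 CPM in WT control and 607 to 634 in WT TGF-β, and 987 to 991 CPM in KO control and 652 to 667 in KO TGF-β.

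Of the 14 TGF-β or activin target genes, all tested, 11 rose in each genotype and none fell, with a median of 1.22 in both. Among them were Pmepa1, a feedback inhibitor of SMAD signalling (log2 fold change 2.63 in WT and 2.65 in KO, adjusted p = 0.000328 and 0.000395), and Ltbp2, a matrix protein (2.15 and 2.09, adjusted p = 0.000124 and 0.00016). Ctgf, a secreted matricellular protein, rose by 1.75 and 1.87 (adjusted p = 0.000282 and 0.000281), and Skil, a SMAD co-repressor, by 1.69 and 1.60 (adjusted p = 0.000103 and 0.000137). TGF-β and activin share these targets, so the list cannot tell the added TGF-β from activin made by the cells. No gene of any of these lists passed in a genotype comparison or in the interaction.

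**Figure D5:**
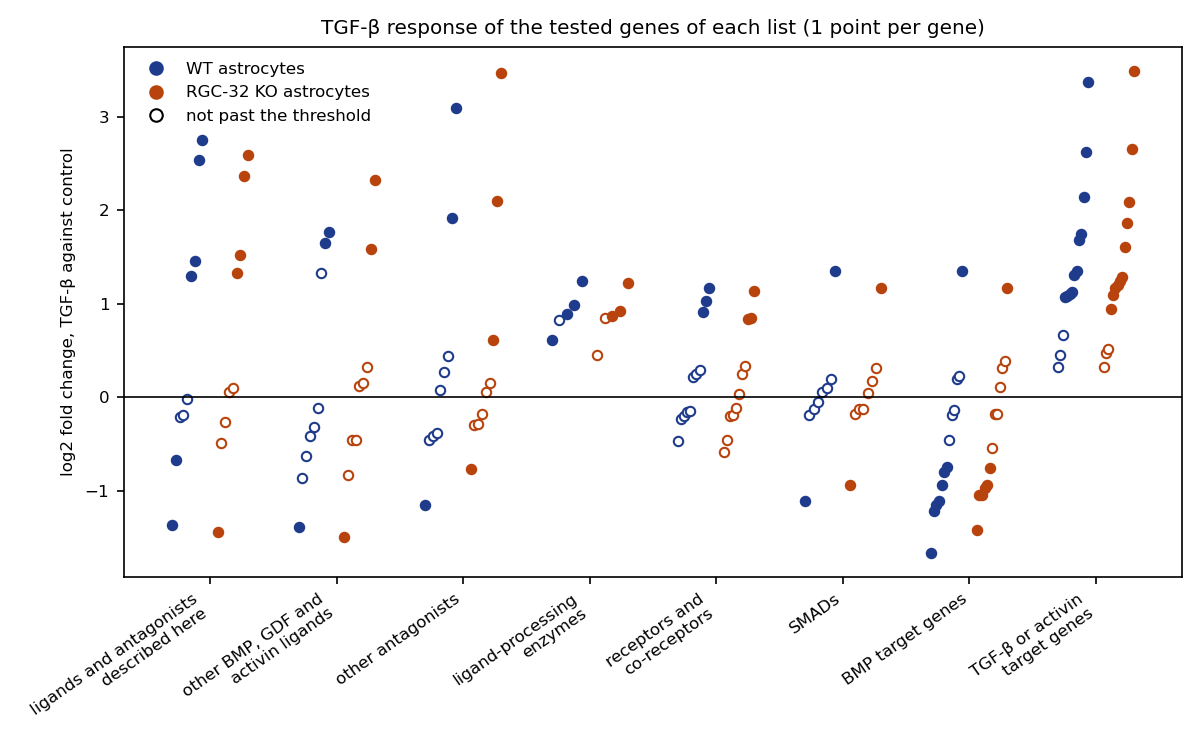
Log2 fold change of TGF-β against control (vertical axis) for each tested gene (points) of the 10 genes described here and of 7 lists by role, in WT (blue) and KO (orange), with filled points past the threshold. Among the BMP target genes 7 filled points in WT and 6 in KO lie below 0, and among the TGF-β or activin target genes 11 in each genotype lie above 0, Smad7 being drawn in 3 lists.

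The genes whose levels followed a member most closely over the 8 libraries were picked by Pearson's r of log2 CPM among 12550 genes. For Fstl3 they were Copg1 (r = 0.999), Anxa8 (0.999) and Myo1d (0.999), for Inhba Nipal1 (0.998), Creb3l2 (0.997) and Itgb3 (0.996), and for Fst Notch3 (0.997), Ltbp2 (0.996) and Smoc2 (0.996). The 8 points of each pair share the split into control and TGF-β libraries. The size of the step between them differed, with a WT log2 fold change of 0.65 for Copg1 and 3.69 for Anxa8 beside 2.75 for Fstl3. For Inhba (2.54) it was 2.46 for Nipal1, 1.58 for Creb3l2 and 2.11 for Itgb3, and for Fst (1.46) it was 1.12 for Notch3, 2.15 for Ltbp2 and 0.93 for Smoc2.

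Several members overlap a gene on the opposite strand. The shared bases are those of whole gene spans, introns included, and how many lie in exons was not examined. In unstranded libraries, reads that fall in exons shared by both genes cannot be told apart. Beside Fstl3 and Prss57, Inhba shares 6240 bases with the antisense gene Gm48444 and 11573 with the pseudogene B230303A05Rik. Bmp4 shares 1764 bases with Gm15222 and 89 with Gm15217, Fst 289 with Gm47040, and Bmp6 7657 bases with 4930579J19Rik and 224 with Txndc5. Of these partners, Gm15217 (13 to 31 counts a library) and Txndc5 (4969 to 8182) had rows in the count table.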

How the data were processed

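RNA of 8 libraries (4 groups of 2 by the labels) was sequenced unstranded. The authors aligned the reads by STAR, run within VIPER, and deposited raw counts per gene for 13937 genes and FPKM values for 18644 genes, ascribed to Cufflinks. The submitters' processing notes name build mm10; the counting program, annotation and tool versions are not given in the sources used here. Gene positions are from GENCODE M21 (GRCm38). The counts hold 20 names turned into dates and 1 repeated name, kept as separate entries. The authors' tables of fold changes and p-values for TGF-β against control were not used.

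The members and lists were chosen with earlier results of these data known. Counts were fitted in R 4.3.3 with edgeR 4.0.16 (filterByExpr, TMM, glmQLFit on all 8 libraries with 4 group means, glmQLFTest, Benjamini-Hochberg over 13509 genes), and the code was tested on simulated data. SE and 95% intervals follow from that fit, and the prior count of log2 CPM was 2. The fold limit of 0.6 is the study's. FPKM compared levels between genes and, as log2(FPKM + 0.1) and log2(FPKM + 1), was tested with limma 3.58.1. Libraries of a group differed by more than sampling noise (chi-square per degree of freedom 6.26 to 10.4). The alternatives were DESeq2 1.42.0, limma-voom, edgeR on 4 libraries, other filters, RLE or upper quartile scaling, no fold limit, Bonferroni, a replicate block and each library left out.

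Named are all 10 members, Rgcc, per pathway list at most 6 genes past the threshold with TGF-β by size in WT, and the 3 genes most like each of the 3 members with the largest change. Some genes this rule picks are not reported here. The summed ratios, Prss57, Txndc5, Gm15217 and the cell markers named were chosen after their values were seen. So were the BMP target genes named as not past the threshold.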

Additional observations from a re-analysis of the deposited data

How the results depend on the processing

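The increase of Fstl3, Inhba, Fst and Fstl1 and the fall of Bmp7 kept their direction and passed the threshold in both genotypes under every alternative run except Bonferroni's correction, under which only 2 of the 9 genes (Fstl3 and Fst) passed in WT and 2 in KO, Inhba, Fstl1 and Bmp7 then having corrected p-values of 0.0601 to 0.174. With single libraries left out, the number of genes past the threshold was 5 to 6 in WT and 5 in KO, the lower WT count coming from Bmp4 without WT control replicate 2 (-0.45). Bmp4 in KO passed without the fold limit (-0.49) and with limma on log2(FPKM + 0.1) (-0.66) and log2(FPKM + 1) (-0.62, also with a mean FPKM of at least 1). Genotype and interaction counts remained 0 of 9 under every alternative run; edgeR on 4 libraries cannot give the interaction.

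Values that changed sign passed no threshold under any setting. Nog in KO was -0.0297 with upper quartile scaling, -0.0597 with FPKM + 0.1 and -0.0553 with FPKM + 1, and Bmp6 in KO was -0.0579 and -0.0572 on the latter pair. Bmp4 in KO TGF-β against WT TGF-β was -0.109 and -0.103 on that pair. The filter on mean FPKM gave the same values as FPKM + 1. With single libraries left out, the ranges were -0.125 to 0.0767 for Bmp6 in WT, -0.0890 to 0.246 for Bmp6 in KO and -0.0382 to 0.121 for Nog in KO. For KO control against WT control they were -0.351 to 0.0837 for Bmp4, -0.654 to 0.170 for Inhba and -0.219 to 0.0586 for Inhbb. For the interaction they were -0.0565 to 0.381 for Bmp4, -0.0672 to 0.268 for Bmp6, -0.252 to 0.0802 for Bmp7, -0.653 to 0.173 for Inhba, -0.225 to 0.0502 for Inhbb, -0.116 to 0.260 for Fst, -0.130 to 0.195 for Fstl1 and -0.375 to 0.0627 for Fstl3. The cause was not tested. A group with 1 library left was assumed to vary like the others.

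With the replicate number as a block, 6 genes passed in WT, 5 in KO and 0 in the other comparisons, as without it. The deviations of same-numbered control and TGF-β libraries correlated at r = -0.343 in WT and -0.348 in KO, and those of same-numbered WT and KO libraries at 0.491 in control and 0.253 with TGF-β, so the numbers moved together across genotypes but not across treatments and were not taken to pair the cultures; a block with the TGF-β numbers crossed, added after seeing the data, again gave 6, 5 and 0. Upper quartile scaling gave a share of higher calls among all genes of 44.8% in WT (57.8% with TMM) and 45.5% in KO (57.3% with TMM), and shifted the median log2 fold change by -0.0857 and -0.0830.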
